A study of Rattus norvegicus with 12 samples.

Results

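The genes for 6 ligands of the epidermal growth factor (EGF) family, Egf, Tgfa, Hbegf, Areg, Ereg and Btc, and for the 4 ErbB receptors, Egfr, Erbb2, Erbb3 and Erbb4, were described in the uteri of ovariectomized rats. They were taken by gene symbol from the deposited RNA-seq tables, and these 10 genes were found among 16493, each with 1 annotated transcript. All rats were female Sprague-Dawley rats, ovariectomized on postnatal day (PND) 50 and collected on PND65. The diet of CAS rats took its protein from casein, and that of SPI rats from soy protein isolate, which carries plant isoflavones, from PND30 by the study's methods, although a shorter feeding time is also given. CAS-E2 and SPI-E2 rats ate these diets and were infused under the skin with the ovarian estrogen 17β-estradiol (E2) at 5 μg/kg/d, while CAS and SPI rats received the vehicle alone. The 3 libraries of a group are called by the group and their replicate number, and each held pooled whole-uterus RNA of 2 animals.

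EGF family ligands are made as membrane-bound precursors that proteases of the ADAM family cut free. A released ligand joins ErbB receptors in pairs, and the pair signals through RAS and the ERK kinases to the nucleus. Erbb2 has no known ligand of its own and Erbb3 has little kinase activity, so both work as partners of other receptors. In the uterus this family is known for its part in the growth of the epithelium under estrogen and in the dialogue between embryo and uterus at implantation.

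Values are FPKM, fragments scaled to the length of the transcript and to the mapped reads of the library, so a level per length. Differences are log2 fold changes of FPKM + 1, which understate the change of low genes, from 1 limma fit over all 12 libraries. A gene was called where the adjusted p of Benjamini and Hochberg was under 0.05 and the change on that scale reached 2-fold. The fit held 10279 genes, those that reached 1 FPKM in 3 or more libraries, which took in Tgfa, Hbegf, Btc, Egfr, Erbb2 and Erbb3. Egf, Areg, Ereg and Erbb4 were too low. The depth was 6353210 to 9862180 mapped reads per library. SPI-E2 1 stood apart, with a summed FPKM of 6 epithelial markers of 467 against 1639 and 1653 in SPI-E2 2 and 3, and SPI 1 had a summed FPKM of liver markers of 1296 against 10.7 and 29.7 in the other SPI libraries. Where leaving out either library ended a call or moved a value by over 1.5 times, that value is given beside the result. Libraries of a group shared their lane, so group and lane cannot be told apart.

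The stretch just upstream of the transcription start is shown for Btc and Tgfa, a pair of ligand genes with higher levels under E2, and for Areg, the neighbour of Btc that was near 0. RefSeq sequence of the rat build GRCr8 was used, 250 bases before the annotated start, 5′ to 3′ on the strand of the gene. Capitals mark a GC box (GGGCGG on either strand) and, in Areg, a TATA box (TATAAA). Btc lies at chr14:16992418-16992667 on the plus strand, Tgfa at chr4:120175469-120175718 on the plus strand and Areg at chr14:17265642-17265891 on the minus strand of that build.
Btc: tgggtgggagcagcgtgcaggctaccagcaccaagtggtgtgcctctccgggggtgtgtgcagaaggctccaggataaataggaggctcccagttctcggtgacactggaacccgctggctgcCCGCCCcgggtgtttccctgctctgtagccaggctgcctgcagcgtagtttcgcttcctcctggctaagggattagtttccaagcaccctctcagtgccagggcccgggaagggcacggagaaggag
Tgfa: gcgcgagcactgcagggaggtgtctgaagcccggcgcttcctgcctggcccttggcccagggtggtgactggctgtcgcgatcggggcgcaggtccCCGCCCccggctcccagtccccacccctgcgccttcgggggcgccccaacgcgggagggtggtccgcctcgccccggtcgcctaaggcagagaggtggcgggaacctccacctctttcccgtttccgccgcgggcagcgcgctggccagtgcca
Areg: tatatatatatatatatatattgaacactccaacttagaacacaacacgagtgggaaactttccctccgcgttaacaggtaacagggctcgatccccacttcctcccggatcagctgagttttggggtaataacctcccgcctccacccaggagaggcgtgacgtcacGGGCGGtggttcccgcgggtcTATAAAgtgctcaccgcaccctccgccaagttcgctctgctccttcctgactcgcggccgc
Of the 10 genes, 8 had such a sequence, the exceptions being Ereg and Erbb3. A GC box stood in 6 of the 8, all but Egf and Hbegf, and in 30.5% of 33469 upstream windows of the same length. The bases G and C made up 51.6% (Egf) to 74.4% (Tgfa) of the 8 windows, where the median of all windows was 51.2%. The share with a GC box was not compared with windows of like composition. TATAAA stood in Areg only, and in 12.9% of all windows. The palindromic estrogen response element GGTCANNNTGACC was in 0 of the 8 and in 0.0239% of all windows, its half-site GGTCA in 0 of the 8 and in 35.4%, and the AP-1 site TGANTCA in 0 of the 8 and in 6.34%, each searched on both strands. A half-site lies within each palindromic element. Such matches describe letters in these windows and not the binding of a factor.

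Btc, Hbegf and Tgfa were the ligand genes with a level that could be tested, and in both diets their means were higher with E2. Their FPKM in uteri with E2 lay above every library of the same diet without E2, as was the case for 23.9% of all tested genes in casein and 30.1% in soy. Btc reached 1 FPKM in 7 libraries and Tgfa in 8, and both passed the filter only through the groups with E2. The same filter left out Egf, which was lower in CAS-E2 than in CAS. That each tested ligand was higher is thus partly set by the filter. In CAS-E2 against CAS, 2 of the 6 tested genes were called, Btc and Hbegf, both higher, where 14.4% of all tested genes were called and 7.99% were called as higher. In SPI-E2 against SPI, 4 of the 6 were called, Btc, Hbegf, Tgfa and Erbb3, all higher, where 10.2% of all tested genes were called and 8.39% as higher. Without SPI 1, whose liver markers were high, the same 4 genes were called in soy, at 2.63, 1.26, 1.22 and 1.44. In that setting 9.07% of all tested genes were called as higher and 1.23% as lower. The receptors Egfr and Erbb2 were not called in any comparison.

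**Figure D1:**
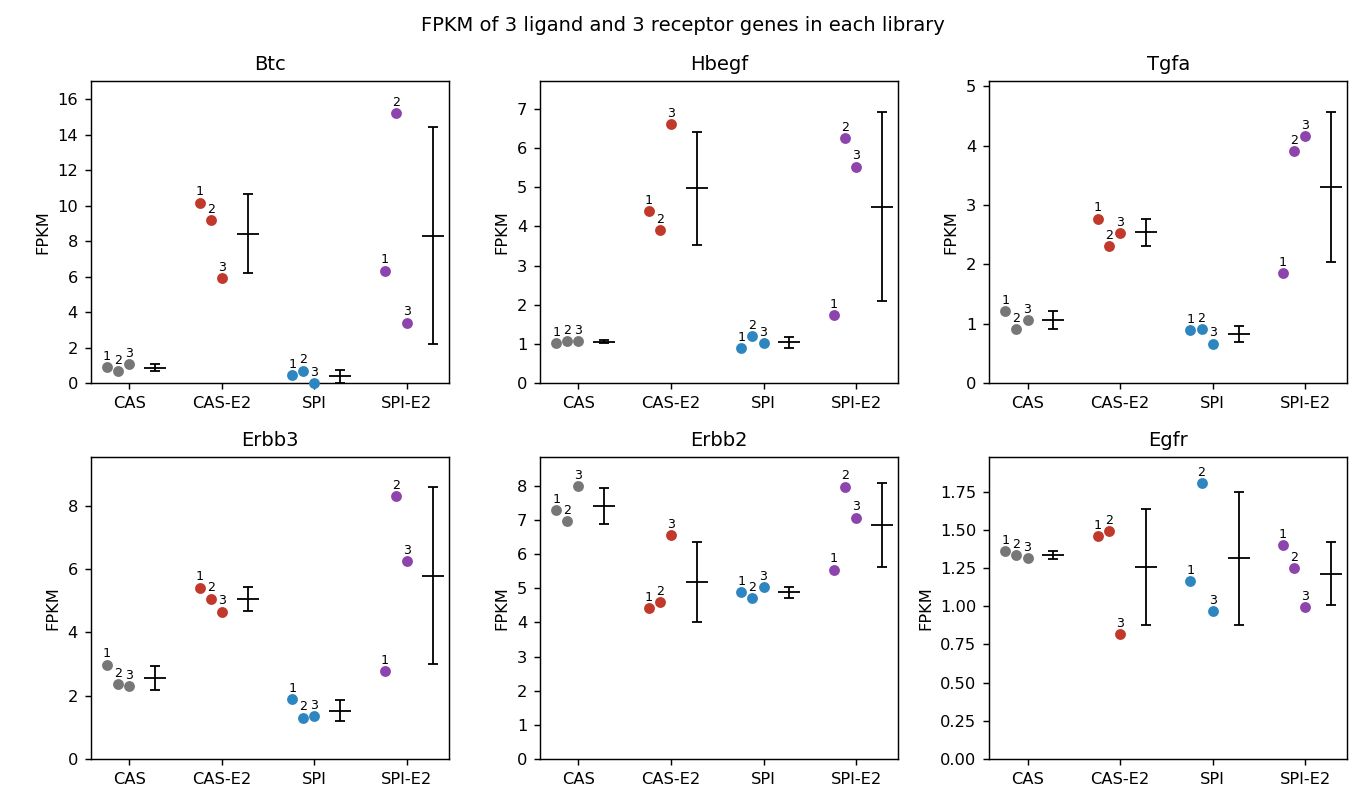
FPKM on the vertical axis of 3 ligand genes (Btc, Hbegf, Tgfa) and 3 receptor genes (Erbb3, Erbb2, Egfr) by group. Points are single libraries, numbered by replicate, and the bar is the mean ± SD of 3 libraries. The E2 libraries lie above all libraries of the same diet without E2 for the ligands and Erbb3, and SPI-E2 1 is the lowest SPI-E2 library for Hbegf, Tgfa, Erbb3 and Erbb2.

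Btc encodes betacellulin, a ligand of both Egfr and Erbb4. It lies on chromosome 14 of rn4 from 18214005 to 18235228. On casein it was at 0.904, 0.681 and 1.06 FPKM without E2 (CAS 1, 2 and 3) and at 10.2, 9.19 and 5.94 FPKM with E2 (CAS-E2 1, 2 and 3). On soy it was at 0.442, 0.706 and 0 FPKM without E2 (SPI 1, 2 and 3) and at 6.35, 15.2 and 3.42 FPKM with E2 (SPI-E2 1, 2 and 3). The lowest library with E2, SPI-E2 3, was thus above the highest without, CAS 3. Group means were 0.881 ± 0.189 FPKM in CAS and 0.383 ± 0.357 in SPI, against 8.44 ± 2.21 in CAS-E2 and 8.32 ± 6.14 in SPI-E2 (SD, n = 3 each). Btc rose on the log2 scale by 2.30 (SE 0.38, limma adjusted p = 0.0012) in CAS-E2 against CAS and of 2.58 (SE 0.38, adjusted p = 0.0011) in SPI-E2 against SPI.
The annotated Btc transcript is only 500 bases long, so few reads stand behind these values and its level cannot well be set beside those of longer transcripts. The coverage implied 2, 2 and 2 reads in CAS, 22, 25 and 12 in CAS-E2, 1, 2 and 0 in SPI, and 14, 44 and 7 in SPI-E2. Summed over a group and set per mapped read, Btc reads were 10.03 times as many in CAS-E2 as in CAS (59 against 6 reads, 95% interval 4.34 to 28.4) and 24.2 times as many in SPI-E2 as in SPI (65 against 3, interval 7.91 to 120). Without SPI-E2 1 the log2 fold change in soy was 2.65. These exact intervals cover counting error only and not the spread between pools.

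Hbegf encodes heparin-binding EGF-like growth factor, a ligand of Egfr and Erbb4. It lies on chromosome 18 of rn4 from 29143567 to 29153944. It was at 1.02, 1.08 and 1.08 FPKM in CAS and at 4.39, 3.90 and 6.60 FPKM in CAS-E2, replicates 1 to 3. It was at 0.899, 1.20 and 1.02 FPKM in SPI and at 1.74, 6.24 and 5.52 FPKM in SPI-E2. The libraries without E2 lay close together in both diets, and SPI-E2 1 lay nearer to them than to SPI-E2 2 and 3. Hbegf rose on the log2 scale by 1.51 (SE 0.30, limma adjusted p = 0.0031) in CAS-E2 and of 1.31 (SE 0.30, adjusted p = 0.0092) in SPI-E2, each against its diet alone. Without SPI-E2 1 the latter was 1.76. As ratios of group means, Hbegf was 4.69 times as high in CAS-E2 as in CAS and 4.33 times as high in SPI-E2 as in SPI.

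Tgfa encodes transforming growth factor alpha, a ligand of Egfr. It lies on chromosome 4 of rn4 from 120355649 to 120437774. It was at 1.21, 0.908 and 1.06 FPKM in CAS 1, 2 and 3 and at 2.77, 2.31 and 2.53 FPKM in CAS-E2. It was at 0.889, 0.915 and 0.669 FPKM in SPI and at 1.85, 3.91 and 4.16 FPKM in SPI-E2. The groups with and without E2 did not overlap in either diet, and the 3 CAS-E2 libraries were the more even set. Tgfa rose on the log2 scale by 1.19 (SE 0.20, limma adjusted p = 0.0021) in SPI-E2 against SPI, and by 1.47 without SPI-E2 1. In CAS-E2 against CAS its log2 fold change of 0.78 (SE 0.20, adjusted p = 0.011) stayed under 2-fold on the scale of FPKM + 1, while the means of 2.54 ± 0.230 and 1.06 ± 0.150 FPKM (SD, n = 3 each) stood 2.40 to 1. With a pseudocount of 0.1 the value was 1.19 and was called.

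The other ligand genes gave few reads. Egf, the founding member of the family, was at 0.449 ± 0.0373 FPKM in CAS and 0.357 ± 0.0572 in SPI, against 0.135 ± 0.0443 in CAS-E2 and 0.242 ± 0.165 in SPI-E2 (SD, n = 3 each). It gave 16, 18 and 13 reads in CAS, 6, 5 and 3 in CAS-E2, 11, 18 and 14 in SPI, and 14, 9 and 3 in SPI-E2. The CAS-E2 libraries all lay below the CAS libraries, while the soy groups overlapped in reads. In a fit without the filter, over 13860 genes, Egf had a log2 fold change of -0.35 (SE 0.085, limma adjusted p = 0.012) in CAS-E2 against CAS, under the fold cutoff, and of -0.13 (SE 0.085, adjusted p = 0.29) in SPI-E2 against SPI. Its means stood at 0.301 to 1 in the former pair.
Areg, the gene of amphiregulin, gave 4 reads in all 12 libraries together and none in the soy groups. Ereg, the gene of epiregulin, gave 1 read, in CAS-E2 3. A count of 0 allows up to 3 reads per library, which is 0.324 to 0.503 FPKM for Areg and 0.480 to 0.745 FPKM for Ereg by library. Differences in these ligands were not detectable at this depth.
Btc, Areg and Ereg are neighbours on chromosome 14 of rn4. Areg lies from 18466322 to 18475571 and Ereg from 18521069 to 18534844, and Areg was the only annotated gene between Btc and Ereg. In the same E2 libraries Btc was called as higher while Areg gave 1 read and Ereg 1 read.

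**Figure D2:**
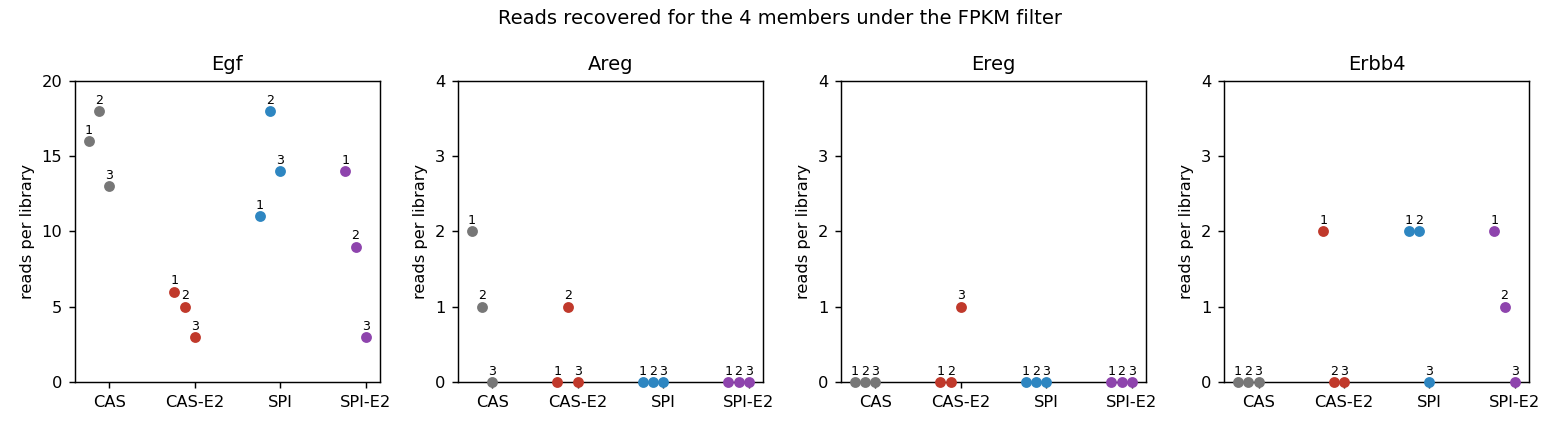
Reads per library implied by the coverage of Egf, Areg, Ereg and Erbb4, the genes too low to test, by group. Points are single libraries, numbered by replicate. Egf lies at 3 to 6 reads in CAS-E2 and at 13 to 18 in CAS, and no library has more than 2 reads of Areg, Ereg or Erbb4.

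Among the receptors, Erbb2 had the highest mean FPKM in all 4 groups, followed by Erbb3 and Egfr, and Erbb4 was near 0. Erbb3 and Egfr overlapped in SPI, and Erbb3 and Erbb2 in CAS-E2 and SPI-E2. Erbb3, a partner receptor with little kinase activity of its own, was at 2.98, 2.37 and 2.31 FPKM in CAS 1, 2 and 3 and at 5.41, 5.07 and 4.66 FPKM in CAS-E2. It was at 1.90, 1.31 and 1.36 FPKM in SPI and at 2.79, 8.32 and 6.26 FPKM in SPI-E2. The groups with and without E2 did not overlap within a diet, but SPI-E2 1 lay below CAS 1. Erbb3, on chromosome 7 of rn4 from 1858057 to 1877353, rose on the log2 scale by 1.34 (SE 0.26, limma adjusted p = 0.0042) in SPI-E2 against SPI, and by 1.71 without SPI-E2 1. In CAS-E2 against CAS it stood at 0.77 on that scale (SE 0.26, limma adjusted p = 0.036), under 2-fold, and that adjusted p stayed under 0.05 in 8 of 16 alternatives. By adjusted p alone, 5 of the 6 tested genes passed in CAS-E2 against CAS and 4 of the 6 in SPI-E2 against SPI, where 39.1% and 27.6% of all genes did.
Erbb2, the receptor without a known ligand, was at 7.28, 6.97 and 8.001 FPKM in CAS 1, 2 and 3 and at 4.41, 4.60 and 6.55 FPKM in CAS-E2. It was at 4.89, 4.71 and 5.03 FPKM in SPI and at 5.55, 7.98 and 7.07 FPKM in SPI-E2. All CAS-E2 libraries lay below the CAS libraries, and all SPI-E2 libraries lay above the SPI libraries. The log2 fold change of Erbb2, on chromosome 10 of rn4 from 87219157 to 87242919, was -0.46 (SE 0.16, limma adjusted p = 0.039) in CAS-E2 against CAS and 0.41 (SE 0.16, adjusted p = 0.075) in SPI-E2 against SPI, both under 2-fold. Without SPI-E2 1 the latter was 0.54 (limma adjusted p = 0.018), still under 2-fold. The adjusted p in casein stayed under 0.05 in 7 of 16 alternatives. Groups that did not overlap were common among all tested genes, with 31.2% lower in CAS-E2 than in CAS libraries and 30.1% higher in SPI-E2 than in SPI, and 1.27% of all genes had this pair of directions together. After median-ratio scaling the Erbb2 values with and without E2 overlapped in both diets.
Egfr, the receptor of Egf, Tgfa, Hbegf and Btc, lies on chromosome 14 of rn4 from 97617358 to 97788211. It was at 1.36, 1.33 and 1.31 FPKM in CAS and at 1.17, 1.81 and 0.968 FPKM in SPI. With E2 it was at 1.46, 1.49 and 0.820 FPKM in CAS-E2 and at 1.40, 1.25 and 0.993 FPKM in SPI-E2. All 4 groups overlapped. Its log2 fold change was -0.06 (95% interval -0.44 to 0.32) in CAS-E2 against CAS and -0.05 (-0.43 to 0.33) in SPI-E2 against SPI, so that these data leave room for differences of that size. Erbb4, a receptor of Btc, Hbegf and the neuregulins, gave 9 reads in all 12 libraries, and a count of 0 allows 0.0811 to 0.126 FPKM by library.

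**Figure D3:**
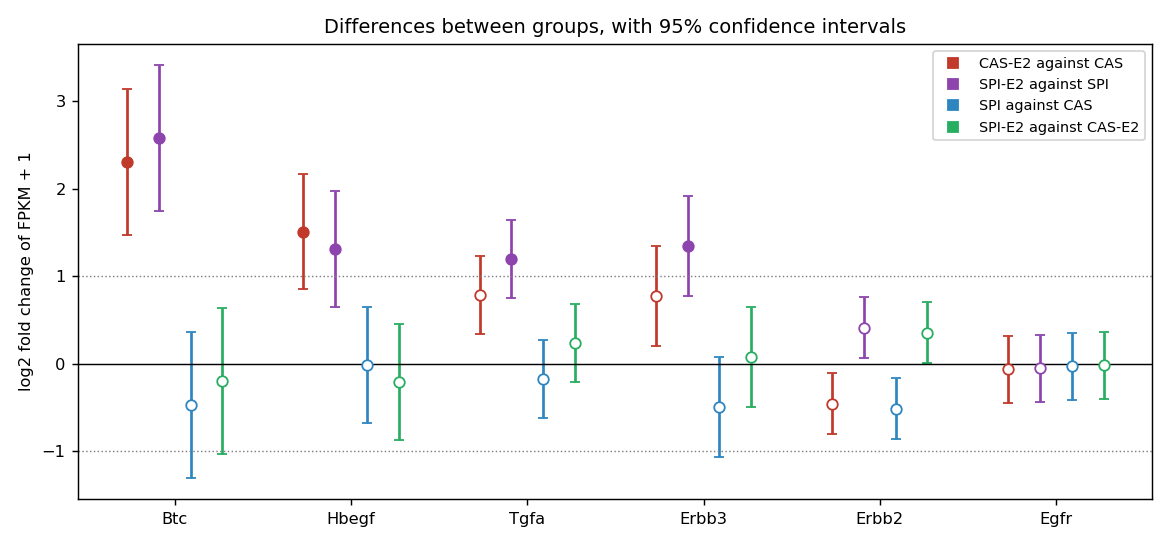
Log2 fold change of FPKM + 1 on the vertical axis for the 6 tested genes in 4 comparisons, with 95% confidence intervals from limma. Filled points passed the adjusted p and the 2-fold cutoff, which dotted lines mark. Btc and Hbegf are filled in both E2 comparisons, Tgfa and Erbb3 in SPI-E2 against SPI, and Erbb2 lies below 0 in CAS-E2 against CAS and above 0 in SPI-E2 against SPI.

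In terms of levels per length, Erbb3 and Erbb2 came closer to each other with E2. The ratio of Erbb3 to Erbb2 FPKM was 0.409, 0.340 and 0.289 in CAS 1, 2 and 3 and 1.23, 1.10 and 0.712 in CAS-E2. It was 0.389, 0.277 and 0.271 in SPI and 0.503, 1.04 and 0.886 in SPI-E2. Each of the 6 libraries with E2 lay above each of the 6 without, with SPI-E2 1 the lowest of the former. The ratio was formed after the values were seen and was not tested.
Markers of epithelium were also higher with E2. Of 6 such markers (Epcam, Cdh1, Krt8, Krt18, Krt19 and Cldn3), 5 could be tested, all 5 were called as higher in both E2 comparisons, and Cldn3 was at 0 in all libraries. Their summed FPKM was 171 to 198 in CAS, 794 to 1373 in CAS-E2, 115 to 144 in SPI and 467 to 1653 in SPI-E2. SPI-E2 1 was the lowest E2 library in this sum and in Hbegf, Tgfa and Erbb3. Btc did not follow the sum in this way, being lowest in SPI-E2 3 and CAS-E2 3, the libraries with the highest sums of their groups at 1653 and 1373. Within CAS-E2 the sum was 794, 987 and 1373 in replicates 1, 2 and 3. Erbb3 went the other way there, at 5.41, 5.07 and 4.66 FPKM, and Tgfa was highest in CAS-E2 1, at 2.77 FPKM. Hbegf was highest in CAS-E2 3, at 6.60 FPKM. Erbb2 was lower in CAS-E2 than in CAS while the sum was higher. Of 6 stroma markers 2 were lower in CAS-E2 and 5 in SPI-E2, with close median log2 fold changes of -0.85 and -1.02 in that order. Of 5 immune markers 4 were higher in CAS-E2 and 1 in SPI-E2. Of 3 endothelial markers 2 were lower in CAS-E2 and 1 in SPI-E2, and of 4 fat markers 1 was higher in CAS-E2. Among all tested genes 7.99% were called higher and 6.37% lower in CAS-E2, and 8.39% and 1.86% in SPI-E2. The 4 smooth muscle and 3 liver markers tested were not called, with median log2 fold changes of 0.40 and -1.11 in CAS-E2 and 0.55 and -1.25 in SPI-E2. The soy liver value rests on SPI 1, with a liver sum of 1296 FPKM. That sum was 10.7 in SPI 2, 29.7 in SPI 3 and 7.80 to 103 in SPI-E2. It is thus no sign of a fall with E2, and a value without SPI 1 is not given. The part of these markers in the results was not tested, and in whole-uterus RNA a change in the number of cells of a type and a change in RNA per cell cannot be told apart.

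**Figure D4:**
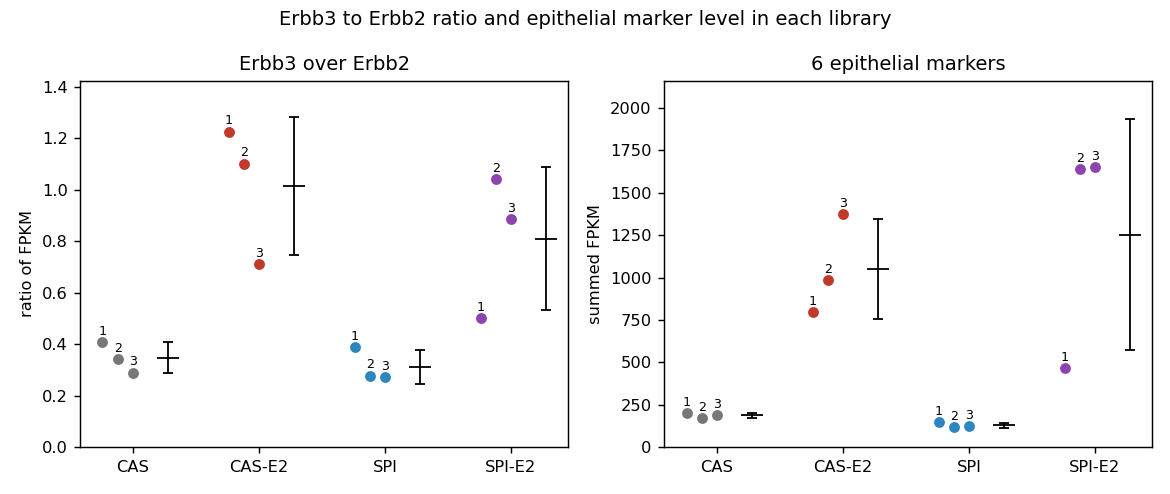
Left, ratio of Erbb3 to Erbb2 FPKM, and right, summed FPKM of 6 epithelial markers, by group. Points are single libraries, numbered by replicate, and the bar is the mean ± SD of 3 libraries. The E2 libraries lie above all others in both panels, and SPI-E2 1 is the lowest of them.

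The diets were compared without and with E2. In SPI against CAS limma called 0 of the 6 tested genes, where 0.0195% of all genes were called, and 1 of them, Erbb2, had an unadjusted p under 0.05, as had 12.8% of all genes. Erbb2 was lower in each SPI library than in each CAS library, with means of 4.88 ± 0.157 and 7.42 ± 0.529 FPKM (SD, n = 3 each) and a log2 fold change of -0.52 (SE 0.16, limma adjusted p = 0.30). The SE and p in this fit come from 1 spread shared by all 4 groups, the E2 groups included. The SD of Erbb2 was 1.18 FPKM in CAS-E2 and 1.23 in SPI-E2. Erbb3 was likewise lower in each SPI library, at a log2 fold change of -0.50 (SE 0.26, limma adjusted p = 0.43). Without SPI 1 these values were -0.52 for Erbb2 and -0.60 for Erbb3. Such gaps were frequent, since 30.8% of all genes lay lower in SPI without overlap. The median of all genes was -0.16, and median-ratio scaling, which moved that median to -0.01, gave -0.35 for Erbb2 and -0.37 for Erbb3. The summed epithelial markers were lower too, at 115 to 144 FPKM in SPI. The intervals for the ligands were wide, from -0.68 to 0.65 for Hbegf, -0.62 to 0.27 for Tgfa and -1.31 to 0.36 for Btc.
In SPI-E2 against CAS-E2 limma again called 0 of the 6, where 0.00973% of all genes were called, and only Erbb2 had an unadjusted p under 0.05, as had 5.85% of all genes. Its log2 fold change was 0.35 (SE 0.16, limma adjusted p = 0.84). Tgfa stood at 0.24 (interval -0.20 to 0.68), Hbegf at -0.21 (-0.87 to 0.45), Btc at -0.20 (-1.03 to 0.64) and Erbb3 at 0.07 (-0.50 to 0.64). Without SPI-E2 1 these values were 0.51 for Tgfa, 0.23 for Hbegf, -0.13 for Btc, 0.45 for Erbb3 and 0.48 for Erbb2, with limma adjusted p of 0.21 to 0.95, and none was called.

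With both treatments set against CAS, 3 of the 6 tested genes were called, where 10.7% of all genes were called and 6.84% as higher. This comparison uses the same CAS libraries as that of CAS-E2. Btc rose on the log2 scale by 2.11 (SE 0.38, limma adjusted p = 0.0033), Hbegf by 1.30 (SE 0.30) and Tgfa by 1.02 (SE 0.20). Without SPI-E2 1 they were at 2.17, 1.74 and 1.29 in that order. Tgfa lay just past the fold cutoff and was called in 13 of 16 alternatives, but not without CAS 2 (0.97), SPI-E2 2 (0.90) or SPI-E2 3 (0.87). Erbb3 was at 0.84 (SE 0.26, adjusted p = 0.032), under 2-fold, and was called in 2 of 16, one of them without SPI-E2 1, at 1.22.

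The E2 effect was not shown to differ between diets for any of these genes. In the interaction term, the E2 effect in SPI minus that in CAS, limma called 0 of the 6 and 0% of all genes, and 1 of the 6, Erbb2, had an unadjusted p under 0.05, as had 14.9% of all genes. Erbb2 had an interaction of 0.87 (SE 0.23, limma adjusted p = 0.18) on the log2 scale. The median of all genes was 0.21 in this term, and median-ratio scaling, which moved that median to 0.01, gave 0.66 for Erbb2. Tgfa had 0.41 (interval -0.21 to 1.04), Erbb3 0.57 (-0.24 to 1.38), Btc 0.28 (-0.90 to 1.46) and Hbegf -0.20 (-1.13 to 0.74). Without SPI-E2 1 the interaction was 0.69 for Tgfa (limma adjusted p = 0.083), 0.94 for Erbb3 (adjusted p = 0.062), 0.35 for Btc and 0.25 for Hbegf. Leaving out each library in turn, Tgfa ran from 0.26 to 0.69 and Erbb3 from 0.29 to 0.94. The term did not pass the adjustment for Tgfa or Erbb3, the genes called with E2 in soy and not in casein. For both genes its size was largest without SPI-E2 1 and smallest without another SPI-E2 library, so it depended on single SPI-E2 libraries.

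Other genes of the pathway, from lists written by hand, moved in both directions under E2. Of 82 listed genes 67 were tested, of which 9 were higher and 5 lower with E2 in casein, and 10 higher and 2 lower with E2 in soy. Among all tested genes 7.99% were higher and 6.37% lower in the former comparison, and 8.39% and 1.86% in the latter. In SPI against CAS limma called 0 of the 67, where 0.0195% of all genes were called, and 11 of them had an unadjusted p under 0.05, as had 12.8% of all genes. Without SPI-E2 1 the soy counts were 16 higher and 3 lower, where 12.5% of all genes were higher and 4.45% lower. Without SPI 1 they were 11 higher and 1 lower, where 9.07% of all genes were higher and 1.23% lower. By list, leaving out SPI-E2 1 gave 7 higher and 1 lower of the ERK-induced genes described next, 2 and 1 of the feedback inhibitors, 2 and 1 of the sheddases and their regulators, and 5 and 0 of the signal transducers.
Of 15 genes known to be induced by ERK signaling, 5 were higher and 1 lower in CAS-E2, and in SPI-E2 6 were higher and 0 lower. The median log2 fold change of this list was 0.20 in CAS-E2 and 0.82 in SPI-E2, where that of all genes was -0.07 and 0.11. Fos, a subunit of the transcription factor AP-1, was at 3.85 ± 1.03 FPKM in CAS and 4.68 ± 0.719 in SPI, against 30.6 ± 6.65 in CAS-E2 and 34.1 ± 15.9 in SPI-E2 (SD, n = 3 each). It rose on the log2 scale by 2.70 (SE 0.32) in casein and 2.51 (SE 0.32) in soy.
Ier3, an early response gene linked to cell survival, rose by 1.54 (SE 0.28) and 1.61 (SE 0.28), in CAS-E2 and SPI-E2 in that order. Plaur, the urokinase receptor, rose by 1.44 (SE 0.41) and 1.96 (SE 0.41), and Phlda1 by 1.38 (SE 0.30) and 1.91 (SE 0.30). Fosl1, another AP-1 subunit, fell by 1.08 (SE 0.24) in CAS-E2 and had -0.58 (SE 0.24, limma adjusted p = 0.092) in SPI-E2. Members of AP-1 thus stood in both directions.
Of 16 feedback inhibitors, 1 was higher and 1 lower in each E2 comparison. Dusp6, a phosphatase of ERK, rose by 1.43 (SE 0.25) in casein and 1.17 (SE 0.25) in soy. Spry1, which restrains RAS signaling downstream of receptors, fell by 1.81 (SE 0.26) and 1.20 (SE 0.26).
Of 7 sheddases and their regulators, 1 was higher and 1 lower in each. Adam9, a membrane protease of the ADAM family, rose on the log2 scale by 1.705 (SE 0.24) in casein and 1.73 (SE 0.24) in soy, from 6.15 ± 1.36 FPKM in CAS to 22.1 ± 2.40 in CAS-E2 and from 4.92 ± 0.366 in SPI to 19.5 ± 6.90 in SPI-E2 (SD, n = 3 each). Timp3, an inhibitor of ADAM and matrix proteases, was at 61.2 ± 9.04 FPKM in CAS and 52.7 ± 8.41 in SPI, against 17.9 ± 5.97 in CAS-E2 and 26.4 ± 18.3 in SPI-E2 (SD, n = 3 each). It fell by 1.76 (SE 0.39) and 1.17 (SE 0.39) on the log2 scale. The soy groups overlapped in Timp3, and its call in soy ended without SPI 1, at -1.11 (limma adjusted p = 0.10).
Of 28 signal transducers, 2 were higher and 2 lower in CAS-E2, and 2 were higher and 0 lower in SPI-E2. Nck1, an adaptor that binds activated receptors, rose by 1.72 (SE 0.31) and 1.60 (SE 0.31). Pik3cb, a catalytic subunit of PI3 kinase, rose by 1.01 (SE 0.23) in CAS-E2 and had 0.92 (SE 0.23), under 2-fold, in SPI-E2, where it was called without SPI-E2 1, at 1.22. The adaptor Gab1 fell by 1.06 (SE 0.13) and the phospholipase gene Plcg1 by 1.05 (SE 0.18) in CAS-E2, with -0.55 and -0.62 in SPI-E2. Map2k1, the kinase that activates ERK, rose by 1.13 (SE 0.20) in SPI-E2 and had 0.82 (SE 0.20) in CAS-E2. Of 6 further ligands only Nrg2 was tested, with 0.62 (SE 0.26) and 0.76 (SE 0.26), and it was not called.

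**Figure D5:**
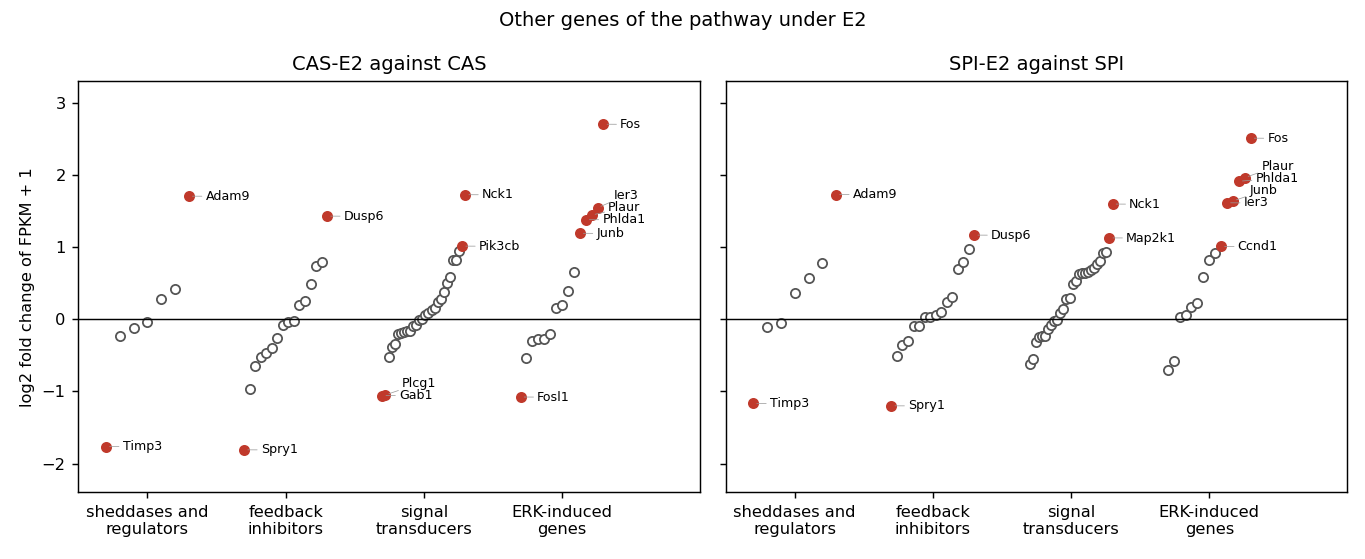
Log2 fold change of FPKM + 1 on the vertical axis for the tested genes of 4 lists, in CAS-E2 against CAS (left) and SPI-E2 against SPI (right), sorted by size within a list. Filled points passed the adjusted p and the 2-fold cutoff and carry their symbol. Fos has the highest value in both panels, and Timp3 and Spry1 are filled below 0 in both.

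The tested genes whose log2(FPKM + 1) followed the called members most closely over the 12 libraries were found by Pearson correlation. These points are 4 groups of 3, so a high value mostly says that a gene stands high with E2. Nearest to Tgfa were Nek6 (r = 0.99), Adra1d (0.99) and Pla2g4c (0.99), and nearest to Hbegf were Plch1 (0.99), Sdcbp2 (0.99) and Lgals9 (0.99). Nearest to Erbb3 were Atp8b1 (0.99), Pkm2 (0.99) and Stat3 (0.99), and nearest to Btc were Htr4 (0.97), Kdelr2 (0.96) and Tmem119 (0.96).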

How the data were processed

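Uterine RNA was measured in 12 libraries, 3 per group, grouped by the diet and E2 given in the labels. The authors aligned 36-bp single reads to rn4 with TopHat2 2.0.9 and Bowtie2 2.1.0 and estimated transcripts with Cufflinks 2.1.1. CASAVA 1.7 stands in the submitters' processing notes as well. The deposited values are FPKM with a coverage per transcript, and they hold no read counts.

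FPKM were summed per gene symbol, and 113 symbols lie on more than 1 chromosome name. Genes that reached 1 FPKM in 3 or more libraries were fitted as log2(FPKM + 1) in 1 model over the 4 groups with limma 3.58.1 (R 4.3.3), with a variance trend and no pairing. Python 3.11.15 made the tables and plots. The fit was tested on simulated data. Reads of the family's genes were recovered from coverage, effective length and a read length of 36, taking the Cufflinks default fragment length (mean 200, SD 80), and lay within 0.29 of whole numbers. The largest distance was that of Btc. The reads served to describe depth and, for Btc, to give ratios of reads between groups with exact 95% intervals.

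The family and the lists of related genes were chosen with earlier results of these data known. From each list the named genes are the 2 largest called rises and falls in CAS-E2 against CAS and up to 2 others called in SPI-E2 against SPI, and for each called member the 3 genes of nearest pattern. One signal transducer was taken off its list after the analysis and is not reported here. Marker lists were epithelium, stroma, smooth muscle, endothelium, immune, fat and liver. The deviations of same-numbered libraries of CAS-E2 and SPI-E2 from their group means correlated at 0.27, 0.12 and 0.34. Libraries of unlike number were not compared, so these values cannot show a pairing. No source says what libraries of the same number share. In other pairs of groups the correlations were -0.26 to 0.15. Pools are separate animals, so p-values measure the spread between pools.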

Additional observations from a re-analysis of the deposited data

Results flagged for a closer look

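Erbb2 had an interaction of 0.87 in log2 units (SE 0.23, limma adjusted p = 0.18), the E2 effect in SPI minus that in CAS. It is listed here because 3 of 3 CAS-E2 libraries lay below every CAS library while 3 of 3 SPI-E2 libraries lay above every SPI library. The test of the difference did not pass the adjustment over 10279 genes. Without SPI-E2 1 it was 0.99 with an adjusted p of 0.051, and leaving out 1 library at a time gave values of 0.77 to 1.02. Median-ratio scaling gave 0.66, the lowest of 16 alternatives. After that scaling the Erbb2 values with and without E2 overlapped in both diets. In the unscaled FPKM, 1.27% of all tested genes had this pair of directions without overlap.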

How the results depend on the processing

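Alternatives for each gene and comparison were a pseudocount of 0.1, no filter, median-ratio scaling, the replicate block and leaving out each library in turn, 16 in all, and counts of calls were also made with no fold cutoff. Btc and Hbegf in both E2 comparisons, and Tgfa and Erbb3 in SPI-E2 against SPI, were called in 16 of 16. With no fold cutoff 5 members were called in CAS-E2 against CAS, and genes called numbered 4018 in CAS-E2 against CAS, 2840 in SPI-E2 against SPI and 3016 in SPI-E2 against CAS. Genes called in SPI against CAS were 0 with a pseudocount of 0.1 and 1 with no filter and with median-ratio scaling, and in SPI-E2 against CAS-E2 they were 0 with no filter, with median-ratio scaling and with the replicate block. The replicate block changed no call of a member. With complete groups it leaves each fold change as it is and alters only the error. The pathway lists without SPI-E2 1 or SPI 1 were added after seeing the data.

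Leaving out 1 library gave 672 to 1739 genes in SPI-E2 against SPI, 706 to 1781 in SPI-E2 against CAS, 0 to 7 in SPI against CAS, 0 to 5 in SPI-E2 against CAS-E2 and 0 to 91 in the interaction. The highest of each came without SPI-E2 1, and the lowest in the former pair without SPI-E2 2 and SPI-E2 3. Directions turned only for values that were not called, the largest being 0.28 for Btc in the interaction over all libraries. Median-ratio scaling gave 0.087 for Hbegf and 0.083 for Egfr in SPI against CAS and -0.12 for Egfr in the interaction. Leaving out 1 library, Egfr ranged from -0.14 to 0.085 in CAS-E2 against CAS, -0.16 to 0.097 in SPI-E2 against SPI, -0.18 to 0.078 in SPI against CAS, -0.17 to 0.060 in SPI-E2 against CAS-E2 and -0.14 to 0.16 in the interaction. Hbegf ranged from -0.071 to 0.034 in SPI against CAS, -0.47 to 0.23 in SPI-E2 against CAS-E2 and -0.45 to 0.25 in the interaction. Btc ranged from -0.70 to 0.24 in SPI-E2 against CAS-E2 and -0.22 to 0.71 in the interaction, Erbb3 from -0.20 to 0.45 in SPI-E2 against CAS-E2, and Erbb2 from -0.21 to 0.018 in SPI-E2 against CAS. The cause was not tested. The low depth of Btc, Egf, Areg, Ereg and Erbb4 limits what can be said of them.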

Other observations

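Cxcl5, a chemokine gene that draws neutrophils, lies beyond Ereg on chromosome 14 of rn4 from 18825358 to 18826269 and was picked after its values were seen. Its mean was 0.455 FPKM in CAS and 0.595 in SPI, and 28.8 in CAS-E2 and 28.9 in SPI-E2. Rassf6, the next annotated gene of that stretch, had means of 3.49, 2.03, 0.609 and 0.730 FPKM in the same order.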
